A study of Homo sapiens with 2 samples.

Results

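The zinc-dependent histone deacetylases HDAC1 to HDAC10 were described in 2 RNA-seq libraries of THP-1, a monocyte-like human cell line that was established from acute myeloid leukaemia. The 10 genes were taken by symbol from a table of FPKM values (fragments scaled to transcript length and library size), and they account for 10 of 11697 listed gene symbols and for 37 of 29373 listed transcripts. The control library came from THP-1 given the solvent DMSO, and the treated library from THP-1 given 2 µM of the agent labelled OPA1, each for 48 h. OPA1 in this text is that agent, not the mitochondrial gene. The title of the series concerns opioid receptor signalling and TET-dependent DNA demethylation in leukaemia, and the comparison addresses which deacetylase mRNAs differ under the agent. Each condition was 1 library of 1 cell line, so no spread between cultures was available, no p-value was computed, and neighbouring levels could not be judged against replicate error.

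Histone deacetylases remove acetyl groups from lysines in histone tails and in many other proteins, which at promoters generally goes with lower transcription. The class I enzymes HDAC1, HDAC2, HDAC3 and HDAC8 are mainly nuclear, and the first 3 of them work inside corepressor complexes such as Sin3, NuRD, CoREST and NCoR. The class IIa proteins HDAC4, HDAC5, HDAC7 and HDAC9 have long amino-terminal regions that bind MEF2 transcription factors, shuttle between nucleus and cytoplasm with 14-3-3 proteins, and have weak deacetylase activity of their own. The class IIb enzymes are HDAC6, a cytoplasmic tubulin deacetylase, and HDAC10, a polyamine deacetylase. Inhibitors of this family are used against blood cancers.

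The summed level and the identity of the libraries were read from the table. The listed values summed to 325059 FPKM in the DMSO library and 331515 FPKM in the OPA1 library, and their read depth is unknown. Of 10 markers of monocytic and myeloid cells 9 were listed, among them ELANE, neutrophil elastase, at 363 and 448 FPKM and LYZ, lysozyme, at 76.5 and 90.99 FPKM. Under OPA1 6 of the 9 were higher and 3 lower. Some were low, such as the integrin gene ITGAM at 2.08 and 2.30 FPKM. CD14 was looked up and not found among the listed genes, so it has no value here. None of 10 markers of other cell types averaged 1 FPKM. In every pair of values below the DMSO library comes first.

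All 10 genes averaged at least 1 FPKM, and their summed mRNA was 206.1 FPKM with DMSO and 188.6 FPKM with OPA1. HDAC2 and HDAC1 were the highest members in both libraries and together held 63.6% and 64.4% of that sum. Below them in the DMSO library came HDAC9, HDAC8, HDAC5, HDAC3, HDAC4, HDAC7, HDAC10 and HDAC6, in falling order. In the OPA1 library the order was HDAC9, HDAC3, HDAC8, HDAC5, HDAC4, HDAC6, HDAC10 and HDAC7. The sums of the 4 class I genes differed by little, at 154.4 and 149.0 FPKM. The 4 class IIa genes were lower under OPA1, at 45.8 and 32.8 FPKM, and the 2 class IIb genes stood at 5.90 and 6.86 FPKM. The class IIa sum was 1.40-fold lower, and most of that difference was HDAC9, whose OPA1 value differed from its DMSO value by -11.3 FPKM. In bulk RNA, fewer cells with a message and less of it per cell cannot be told apart.

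**Figure D1:**
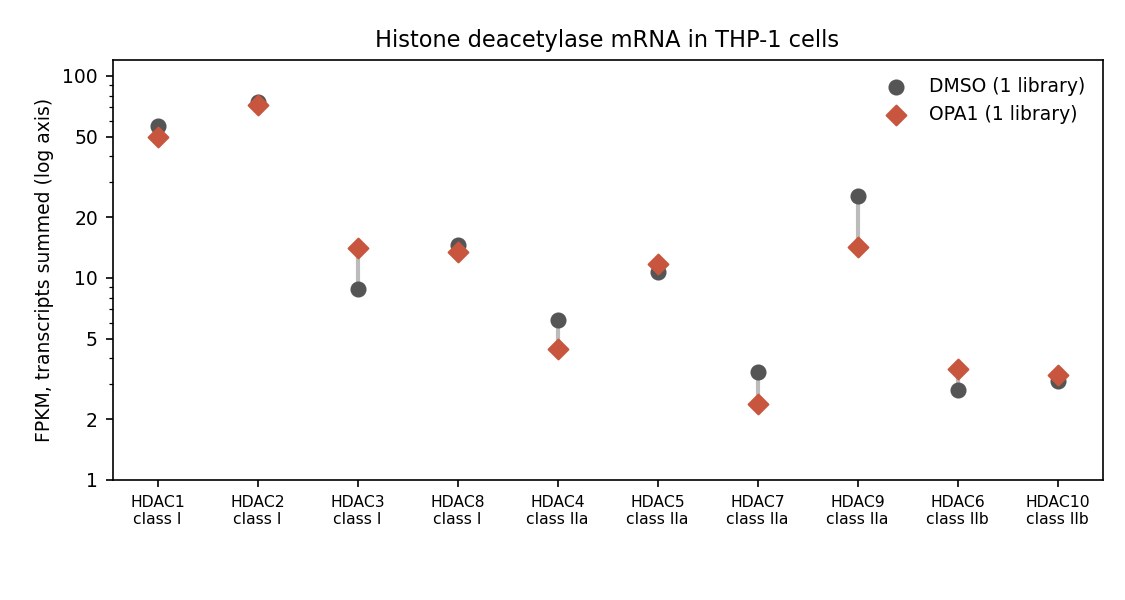
Level of each histone deacetylase gene (FPKM summed over listed transcripts, log axis) in the DMSO library (circles) and the OPA1 library (diamonds), with 1 library per condition and so no error bars. HDAC9 is lower with OPA1 (25.5 and 14.2 FPKM) and HDAC3 higher (8.77 and 14.1 FPKM), while HDAC1 and HDAC2 lie close together in both libraries.

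No deacetylase gene reached a 2-fold difference on the log2(FPKM + 1) scale, which shrinks differences of low genes; 3.96% of the 10601 genes averaging at least 1 FPKM did so in either direction, and 3.22% of the 7270 genes averaging at least 5 FPKM. Of the 10 members 4 were higher and 6 lower under OPA1, with log2 ratios of OPA1 over DMSO from -0.80 to 0.63 and a median of -0.08. Over all genes tested 49.9% were higher and 50.1% lower, the median was -0.00024, and the interquartile range ran from -0.15 to 0.16. The ratios of 4 members lay inside that range and those of 6 outside it. The sums of several members were divided differently among their transcripts in the 2 libraries.

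**Figure D2:**
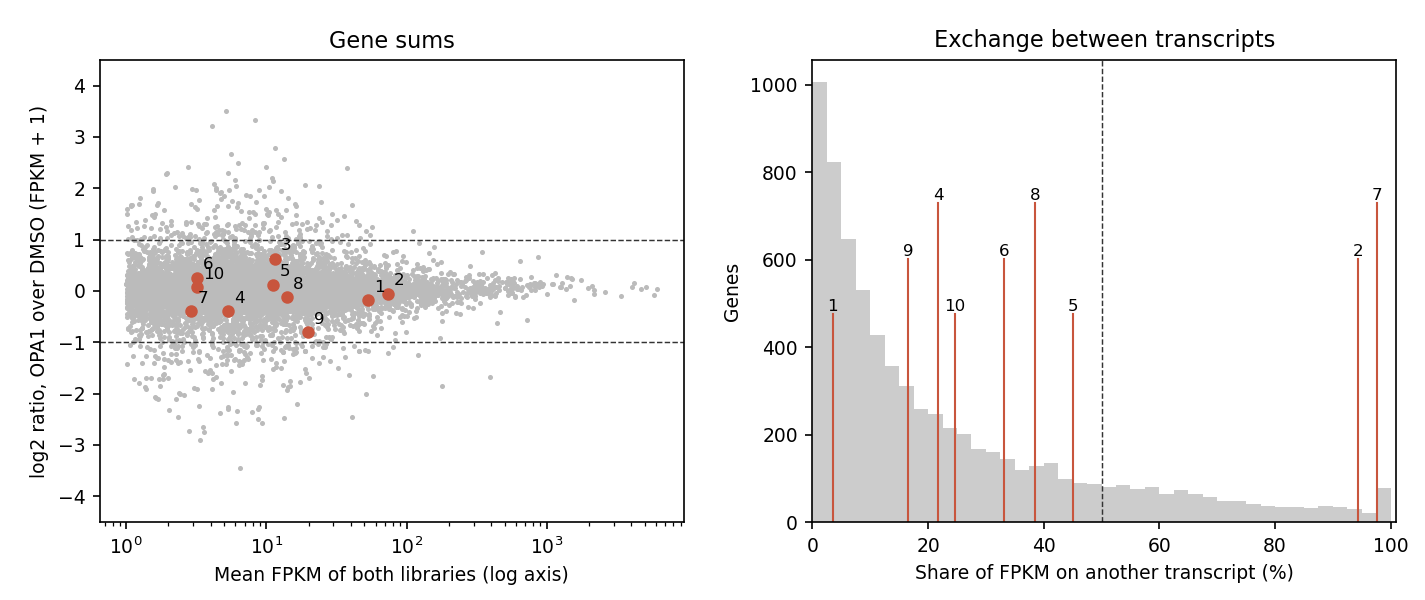
Left, log2 ratio of OPA1 over DMSO (FPKM + 1) against mean FPKM for genes averaging at least 1 FPKM (grey) and the 10 deacetylases (red, numbered by member), with dashed lines at 2-fold. Right, number of genes by the share of their FPKM that sat on a different transcript in the other library, with a dashed line at 50%; HDAC2 and HDAC7 lie at 94.3% and 97.6%.

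HDAC1, a catalytic subunit of Sin3, NuRD and CoREST, lies on chromosome 1 (32757687 to 32799236, hg19). Its mRNA was at 56.6 and 49.7 FPKM, a log2 ratio of -0.18. Nearly all of it was HDAC1-201, the annotated transcript of 482 residues, at 56.6 and 47.9 FPKM. HDAC1-202, a model of 664 bases without an annotated end, was at 0.0540 and 1.80 FPKM. HDAC1 was the member with several listed transcripts whose division between them differed least, with 3.52% of its FPKM on another transcript in the other library.

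HDAC2, the close paralog of HDAC1 in the same complexes, lies on chromosome 6 (114254192 to 114292449, hg19). Its sum was nearly level, at 74.4 and 71.7 FPKM, but different transcripts carried it. HDAC2-201 was at 67.7 FPKM with DMSO but at 0.0230 FPKM under OPA1. HDAC2-206 was the reverse, at 0.00588 FPKM with DMSO and, under OPA1, at 67.7 FPKM. Added together, these transcripts stood at 67.7 FPKM in each library. In all, 94.3% of the FPKM of HDAC2 was on another transcript in the other library.

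The exchanged HDAC2 transcripts have the same annotated coding sequence, base for base, of 458 residues. They share 1755 exon bases and differ only at the 5′ end, where HDAC2-201 has 329 bases of its own and HDAC2-206 has 245, none of them coding. HDAC2-206 shares 84.2% of the bases of HDAC2-201, so their division rests on the 5′ end, and how the authors' estimation assigned shared reads in each library was not tested. When transcripts with equal coding bases were joined, a step chosen after seeing the data, 3.36% of the FPKM of HDAC2 changed transcript. The consensus transcript HDAC2-205, with 488 residues and a 3′ end that runs 7690 bases further, was at 5.07 and 3.23 FPKM. Its coding start is shown because it marks what the annotated reading frames of HDAC2-201 and HDAC2-206 leave out. The first 90 coding bases of HDAC2-205, or 30 residues, stand in lower case. HDAC2-201 holds these bases too, annotated as noncoding. Capitals mark the start of the reading frame that all 3 share (minus strand, GENCODE release 29, capitals at chr6:113959951-113959980, GRCh38).
HDAC2-205: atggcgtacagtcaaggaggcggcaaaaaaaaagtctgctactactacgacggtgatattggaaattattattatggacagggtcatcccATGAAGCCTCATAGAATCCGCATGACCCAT
HDAC2-201 and HDAC2-206: ATGAAGCCTCATAGAATCCGCATGACCCAT
The remaining HDAC2 models have an unannotated end. HDAC2-202 was at 0.566 and 0.506 FPKM, and HDAC2-212 was at 1.04 and 0.296 FPKM.

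HDAC3, the catalytic subunit of the NCoR complex, was the member with the highest ratio. It lies on chromosome 5 (141000443 to 141016437, hg19). Only HDAC3-201, of 428 residues, was listed, so no exchange between transcripts could be seen. It was at 8.77 and 14.1 FPKM, 1.61-fold higher, with a log2 ratio of 0.63. Of 2604 genes with a mean level within 1.5-fold of it, 8.60% differed at least as far in either direction. An annotated antisense gene, AC008781.1, covers 5.41% of its exon bases, and reads from the 2 strands could not be told apart because strandedness is not given in the sources used here.

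HDAC8, a class I enzyme that acts outside these complexes and deacetylates the cohesin subunit SMC3, lies on chromosome X (71549366 to 71792953, hg19). Its sum was at 14.6 and 13.4 FPKM, a log2 ratio of -0.11. HDAC8-209 was at 0 in the control and at 4.81 FPKM under OPA1, where it was the leading transcript with 35.9% of the gene. HDAC8-207, which led in the DMSO library with 57.9%, was at 8.45 and 4.69 FPKM. HDAC8-214 was at 3.21 and 1.69 FPKM, and HDAC8-211 at 1.27 and 0.542 FPKM. The short HDAC8-201 and HDAC8-202 differed less, at 0.640 and 0.938 FPKM and at 1.013 and 0.734 FPKM. The 5 transcripts other than HDAC8-209 together stood at 14.6 and 8.59 FPKM. The share on another transcript was 38.5%, and 8.13% when transcripts listed at 0 in a library or low in both were left out. Structures were not compared, since these transcripts did not match GENCODE release 29 in version or span. In that release 30.4% of the exon bases of these transcripts also lie in exons of AL133500.1 on the same strand, so reads could be divided between them.

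**Figure D3:**
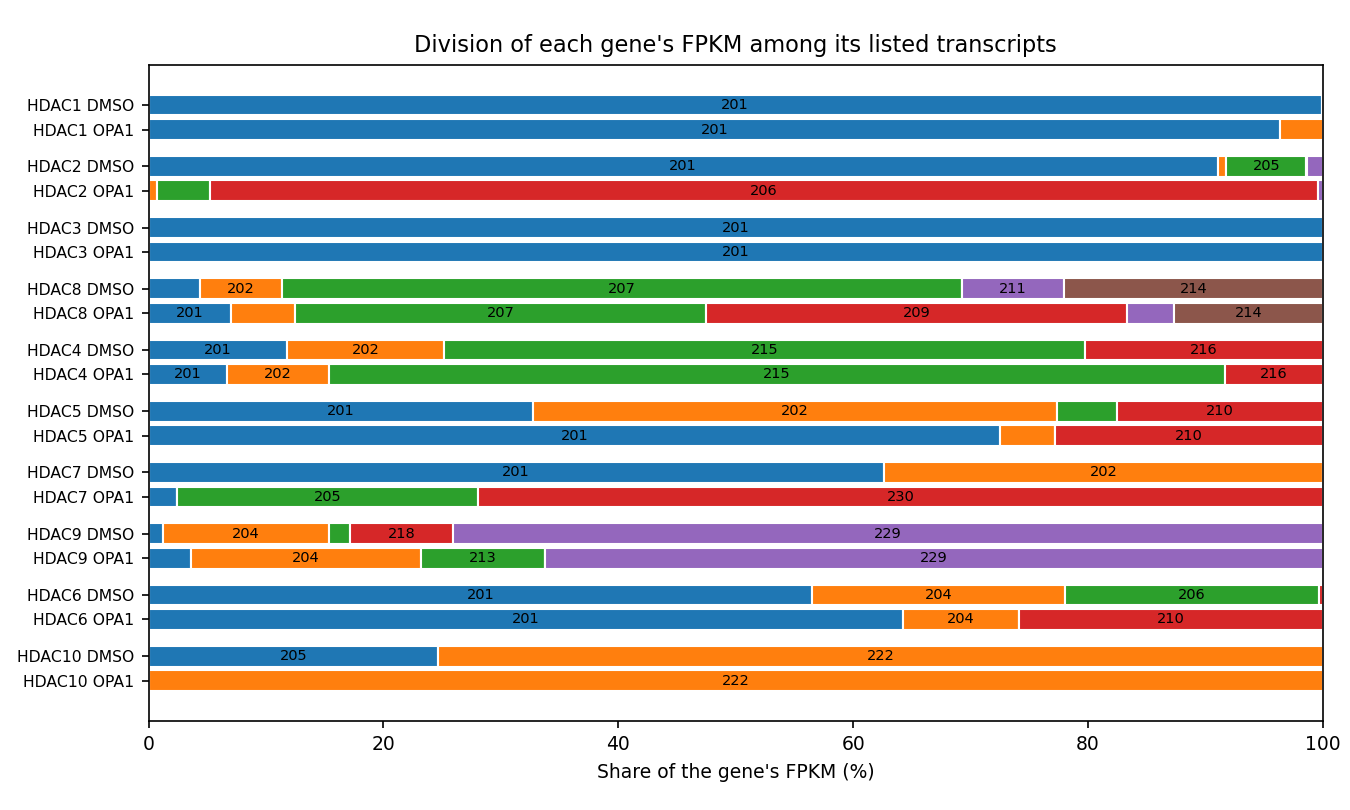
Share of each gene's FPKM (%) on its listed transcripts in the DMSO library (upper bar) and OPA1 library (lower bar), with transcript numbers printed on segments of at least 6%. HDAC2 passes from transcript 201 to 206 and HDAC7 from 201 and 202 to 230 and 205, while HDAC1 keeps transcript 201. HDAC3 has only 1 listed transcript, which fills its bar in both libraries by construction.

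HDAC9 was the member with the lowest ratio. It lies on chromosome 7 (18329715 to 19042039, hg19) and was at 25.5 and 14.2 FPKM, 1.80-fold lower, with a log2 ratio of -0.80. Of 2185 genes within 1.5-fold of its mean level, 5.08% differed at least as far. The gene is known to make both full-length proteins and short proteins that end before the deacetylase domain, the latter known as MITR or HDRP. In THP-1 the short forms made up most of the signal. HDAC9-229, of 549 residues, was at 18.9 and 9.40 FPKM, and HDAC9-218, of 562 residues, was at 2.24 FPKM and listed at 0 with OPA1. Together the short forms were 2.25-fold lower, at 21.2 and 9.40 FPKM. The long forms HDAC9-204, of 1066 residues, and HDAC9-201, of 1025 residues, were at 3.62 and 2.78 FPKM and at 0.310 and 0.514 FPKM. Together the long forms were 1.19-fold lower, at 3.93 and 3.30 FPKM, and their share of the gene was 15.4% and 23.2%. HDAC9-213, a model with an unannotated end, was at 0.451 and 1.496 FPKM. Within HDAC9, 16.6% of the FPKM was on another transcript under the other treatment, and HDAC9-229 led in both libraries.

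The point where the short and long HDAC9 messages part is shown in plus-strand coding sequence (GENCODE release 29, GRCh38). Lower case marks the last 30 coding bases that HDAC9-229 shares with HDAC9-204. Capitals mark the 48 bases with which the reading frame of HDAC9-229 ends (chr7:18666477-18666524), and the 48 bases with which HDAC9-204 goes on instead (chr7:18727580-18727627).
HDAC9-229: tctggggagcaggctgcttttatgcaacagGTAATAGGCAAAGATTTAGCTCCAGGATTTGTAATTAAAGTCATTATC
HDAC9-204: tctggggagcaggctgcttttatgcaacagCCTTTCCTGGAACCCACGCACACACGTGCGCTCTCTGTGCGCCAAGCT
Beyond this point HDAC9-204 has 1476 coding bases that HDAC9-229 lacks, among them those of the deacetylase domain. HDAC9-218 and HDAC9-229 share 1554 coding bases. HDAC9-218 also holds an internal stretch of 132 coding bases, which HDAC9-204 has and HDAC9-229 does not.

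HDAC5, a class IIa repressor of MEF2 targets, lies on chromosome 17 (42154114 to 42201006, hg19). Its sum was at 10.7 and 11.7 FPKM, a log2 ratio of 0.12, and its leading transcript differed. HDAC5-202, of 1037 residues, was at 4.77 and 0.546 FPKM. HDAC5-201, of 1123 residues, was at 3.49 and 8.51 FPKM. Together they were 77.4% and 77.2% of the gene. The models HDAC5-210 and HDAC5-207, with unannotated ends, were at 1.88 and 2.67 FPKM and at 0.540 FPKM and 0. The share of HDAC5 on another transcript was 45.1%.

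Every base of HDAC5-202 lies in HDAC5-201, so the exchange rests on 286 bases that the former lacks, 258 of them coding. The main stretch is shown in capitals with 15 shared bases on either side. It has 255 bases from a pair of neighbouring exons (minus strand, chr17:44085022-44085155 and chr17:44084555-44084675, GRCh38, GENCODE release 29) at the start of the deacetylase domain. The junction that HDAC5-202 has in its place follows.
HDAC5-201: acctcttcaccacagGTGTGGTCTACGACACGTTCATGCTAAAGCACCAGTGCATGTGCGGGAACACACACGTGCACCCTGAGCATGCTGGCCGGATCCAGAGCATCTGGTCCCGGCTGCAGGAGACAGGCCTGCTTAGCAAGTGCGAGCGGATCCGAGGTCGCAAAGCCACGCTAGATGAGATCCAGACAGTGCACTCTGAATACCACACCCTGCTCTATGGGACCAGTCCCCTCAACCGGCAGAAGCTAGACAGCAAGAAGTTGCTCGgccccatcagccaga
HDAC5-202: acctcttcaccacaggccccatcagccaga
The transcript with this stretch held 32.7% of HDAC5 with DMSO and 72.5% under OPA1.

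HDAC7, a class IIa protein with known roles in lymphoid and endothelial cells, lies on chromosome 12 (48176505 to 48213744, hg19). It was low, at 3.43 and 2.37 FPKM, with a log2 ratio of -0.40, and it had the largest exchange of the 9 members with several listed transcripts, at 97.6%. HDAC7-201, of 991 residues, was at 2.15 and 0.0575 FPKM, and HDAC7-202, of 954 residues, was at 1.28 FPKM and listed at 0 with OPA1. HDAC7-230, of 974 residues, was at 0 in the control and at 1.70 FPKM under OPA1. The 3 complete forms together were 1.95-fold lower, at 3.43 and 1.76 FPKM. The remaining 25.6% of the OPA1 value was HDAC7-205, a model of 576 bases with an unannotated end, at 0 and 0.607 FPKM. An antisense gene, AC004466.1, covers 5.13% of the exon bases of HDAC7.

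The 3 complete HDAC7 messages share most of their coding sequence and differ by short internal stretches. The start of HDAC7-201 holds 51 bases, in capitals, that are missing from HDAC7-230 (minus strand, capitals at chr12:47802224-47802274, GRCh38, GENCODE release 29).
HDAC7-201: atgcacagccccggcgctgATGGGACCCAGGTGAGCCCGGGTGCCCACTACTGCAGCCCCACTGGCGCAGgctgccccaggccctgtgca
HDAC7-230: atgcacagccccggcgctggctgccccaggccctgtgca
HDAC7-202 keeps these bases and lacks another 111 coding bases, which code for 37 residues. Outside the coding part HDAC7-230 ends earlier, without the last 929 bases of HDAC7-201.

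**Figure D4:**
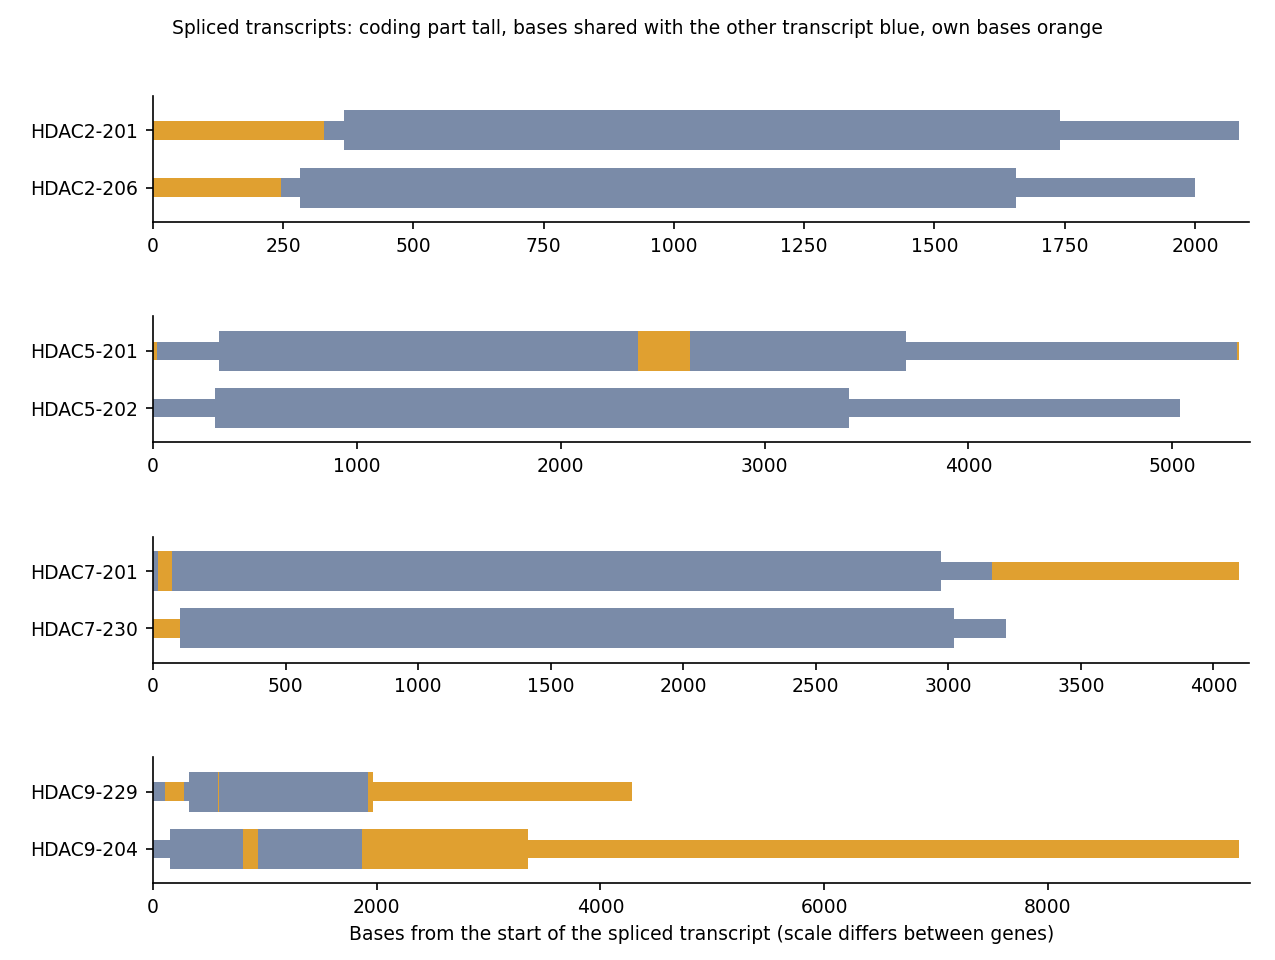
Spliced transcripts of HDAC2, HDAC5, HDAC7 and HDAC9 drawn to scale from GENCODE release 29, with bases from the transcript start on the x axis (scale differs between genes), coding parts tall, bases shared with the other transcript blue and own bases orange. HDAC2-201 and HDAC2-206 differ only at the noncoding 5′ end, and HDAC9-229 ends before the part of HDAC9-204 that holds the deacetylase domain.

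HDAC4, the class IIa member best known from muscle and cartilage, lies on chromosome 2 (239969864 to 240322705, hg19). Its sum was at 6.17 and 4.47 FPKM, a log2 ratio of -0.39. Its leading transcript was level: HDAC4-215, of 972 residues, was at 3.36 and 3.41 FPKM. The consensus HDAC4-201, of 1084 residues, was at 0.725 and 0.298 FPKM. Most of the difference lay in short models with unannotated ends, HDAC4-216 of 342 bases at 1.25 and 0.374 FPKM and HDAC4-202 of 578 bases at 0.827 and 0.387 FPKM. Weighted by transcript length, which makes these models count less, the log2 ratio of HDAC4 was -0.13. HDAC4-201 and HDAC4-215 share 8975 exon bases, so few bases tell their reads apart, although 351 coding bases of HDAC4-201 are not annotated as coding in HDAC4-215. In all, 21.8% of the FPKM of the gene was on another transcript.

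HDAC6, which deacetylates tubulin and binds ubiquitin, lies on chromosome X (48660107 to 48683386, hg19). It was at 2.79 and 3.55 FPKM, a log2 ratio of 0.26. HDAC6-201 led in both libraries, at 1.58 and 2.28 FPKM. HDAC6-206 was at 0.603 and 0.00159 FPKM and HDAC6-210 at 0.0104 and 0.917 FPKM, so a minor transcript of each library was nearly missing from the other. HDAC6-204 was at 0.602 and 0.350 FPKM. The share on another transcript was 33.2%.

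HDAC10, the polyamine deacetylase, lies on chromosome 22 (50683615 to 50689834, hg19). It was nearly level, at 3.10 and 3.31 FPKM. HDAC10-222 led in both libraries, at 2.34 and 3.31 FPKM, although its annotated reading frame has only 96 residues. HDAC10-205, of 619 residues, was at 0.766 FPKM and listed at 0 with OPA1, so 24.7% of the FPKM of the gene was on another transcript. The annotated reading frames part where HDAC10-222 lacks 97 bases, shown in capitals between 15 shared bases on either side, followed by the junction of HDAC10-222 (minus strand, capitals at chr22:50250427-50250523, GRCh38, GENCODE release 29).
HDAC10-205: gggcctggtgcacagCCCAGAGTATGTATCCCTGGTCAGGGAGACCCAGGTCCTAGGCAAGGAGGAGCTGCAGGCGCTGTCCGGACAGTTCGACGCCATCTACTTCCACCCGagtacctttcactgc
HDAC10-222: gggcctggtgcacagagtacctttcactgc
In that annotation 86.9% of the exon bases of the listed HDAC10 transcripts also lie in exons of MAPK12 on the same strand, so the division of reads between these genes is uncertain.

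Set against all genes, exchange in the family stood as follows. Of the 9 members with several listed transcripts 2, HDAC2 and HDAC7, had at least 50% of their FPKM on another transcript, where 14.6% of 7204 such genes did. The median exchange was 33.2% over the members and 13.8% over the 7204 genes. The leading transcript differed between libraries in 4 members (HDAC2, HDAC5, HDAC7 and HDAC8) and in 26.8% of all such genes. Exchange as large as in HDAC2 was seen in 103 of the 7204 genes. Among the 892 of these genes averaging at least 50 FPKM, 50 had an exchange of at least 50%. Of the 892, 3 reached the value of HDAC2, HDAC2 itself included. The level of 50 FPKM was not planned beforehand. At the level of single transcripts, 7 of the 18 deacetylase transcripts averaging at least 1 FPKM differed by at least 2-fold, 3 higher and 4 lower, beside 18.2% of 19623 transcripts in the table. Listed at 0 were 3 of the 37 deacetylase transcripts with DMSO and 4 with OPA1, beside 4.55% and 5.38% of all listed transcripts. An exact 0 in such a table can be a failed estimate and need not mean absence.

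Genes of the corepressor complexes that hold class I deacetylases were compared next. The lists were chosen for their known partnership with the enzymes. Of 15 Sin3 complex genes averaging at least 1 FPKM 8 were higher and 7 lower under OPA1. Their log2 ratios had a median of 0.12, and none was past 2-fold. Its scaffolds SIN3A and SIN3B were at 18.8 and 15.4 FPKM and at 7.11 and 5.97 FPKM. The widest ratios in that list were those of ARID4A, a chromatin-binding subunit, at 13.97 and 22.6 FPKM, and ING1, a reader of methylated histone H3, at 6.16 and 8.56 FPKM. The higher sum of ARID4A came from ARID4A-204 alone, at 0.0149 and 12.3 FPKM.

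In the NuRD list 5 of 12 genes were higher and 7 lower; their median was -0.02. The remodeller CHD4 was at 38.7 and 37.1 FPKM and MTA2 at 47.4 FPKM in both libraries. The histone chaperones RBBP4 and RBBP7, shared with Sin3, were at 95.2 and 92.3 FPKM and at 82.2 and 76.0 FPKM. Past 2-fold in this list was GATAD2A, which links the parts of NuRD, at 20.3 and 8.81 FPKM. Its transcripts went in opposite directions: GATAD2A-201 was at 13.97 FPKM and listed at 0 with OPA1, and GATAD2A-202 was at 1.87 and 7.20 FPKM. MTA3 was at 6.50 and 4.89 FPKM.

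The CoREST list had 4 of 8 genes higher and a median of -0.02. Its scaffold RCOR1 was at 20.9 and 19.0 FPKM and the demethylase KDM1A at 42.2 and 44.3 FPKM. The subunits PHF21A and HMG20B were farthest apart, at 9.80 and 5.82 FPKM and at 8.15 and 12.4 FPKM. For NCoR, the complex of HDAC3, 4 of 6 genes were higher, around a median of 0.03. NCOR1 was at 18.4 and 19.3 FPKM and GPS2 at 4.29 and 6.28 FPKM. All 3 genes of the mitotic complex MiDAC were lower, with a median of -0.20, and its scaffold ELMSAN1 was at 4.32 and 3.23 FPKM. In ELMSAN1 85.6% of the FPKM was on another transcript. ELMSAN1-201 was at 2.94 FPKM and listed at 0 with OPA1, and ELMSAN1-202 was at 0.00459 and 2.72 FPKM. TRERF1 of MiDAC was at 10.4 and 8.94 FPKM.

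Partners and kinases of the class IIa proteins had a median log2 ratio of -0.02, with 8 of 19 genes higher. Farthest apart on the log2(FPKM + 1) scale were YWHAH and YWHAB, which code for 14-3-3 proteins that hold phosphorylated class IIa proteins in the cytoplasm. YWHAB was at 83.5 and 159.8 FPKM and YWHAH at 51.6 and 20.5 FPKM, the latter past 2-fold. The other 14-3-3 genes on the list had log2 ratios from -0.06 to 0.36, and the low MEF2B, a MEF2 factor named here after its values were seen, was at 0.832 and 2.32 FPKM. A separate entry, BORCS8-MEF2B, went the other way, at 2.00 and 0.249 FPKM. Whether reads were divided differently between these entries was not tested. In both YWHAB and YWHAH transcripts exchanged: YWHAB-202 was at 21.6 and 140.8 FPKM and YWHAB-201 at 61.9 and 19.0 FPKM, while YWHAH-201 was at 51.5 and 11.9 FPKM and YWHAH-202 at 0.0351 and 8.62 FPKM. On the list for HDAC6 and HDAC8, which holds partners, substrates, cohesin and microtubule genes, 8 of 18 were higher, with a median of -0.05. Farthest apart there were DNAAF5 and STAG2. DNAAF5, an assembly factor of axonemal dynein, was past 2-fold, at 11.99 and 5.23 FPKM. The cohesin subunit STAG2 was at 30.2 and 19.4 FPKM. Its transcripts went in opposite directions: STAG2-204 was at 26.15 and 4.27 FPKM, STAG2-201 at 0.685 and 4.07 FPKM and STAG2-205 at 0.00675 and 4.07 FPKM.

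The sirtuins, NAD-dependent deacetylases unrelated in sequence to the HDAC family, had 4 of 6 genes higher and a median log2 ratio of 0.47. That median was 0.17 with no minimum level, which adds SIRT4 at 0.670 FPKM and 0, and 0.77 among genes averaging at least 5 FPKM. SIRT7, a nucleolar deacetylase, was at 1.52 and 5.09 FPKM, and SIRT6, a nuclear one, was at 4.68 and 10.97 FPKM, both past 2-fold. The higher value of SIRT7 came mainly from SIRT7-210, at 0.851 and 4.13 FPKM. In SIRT6 transcripts opposed each other, with SIRT6-203 at 0.230 and 5.39 FPKM and SIRT6-214 at 1.48 and 0.0445 FPKM. HDAC11 was looked up and not found among the listed genes. Over all 115 partner genes tested on 10 lists, 49 were higher and 66 lower, the median was -0.04, and 7, or 6.09%, were past 2-fold, beside the 3.96% of all genes.

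**Figure D5:**
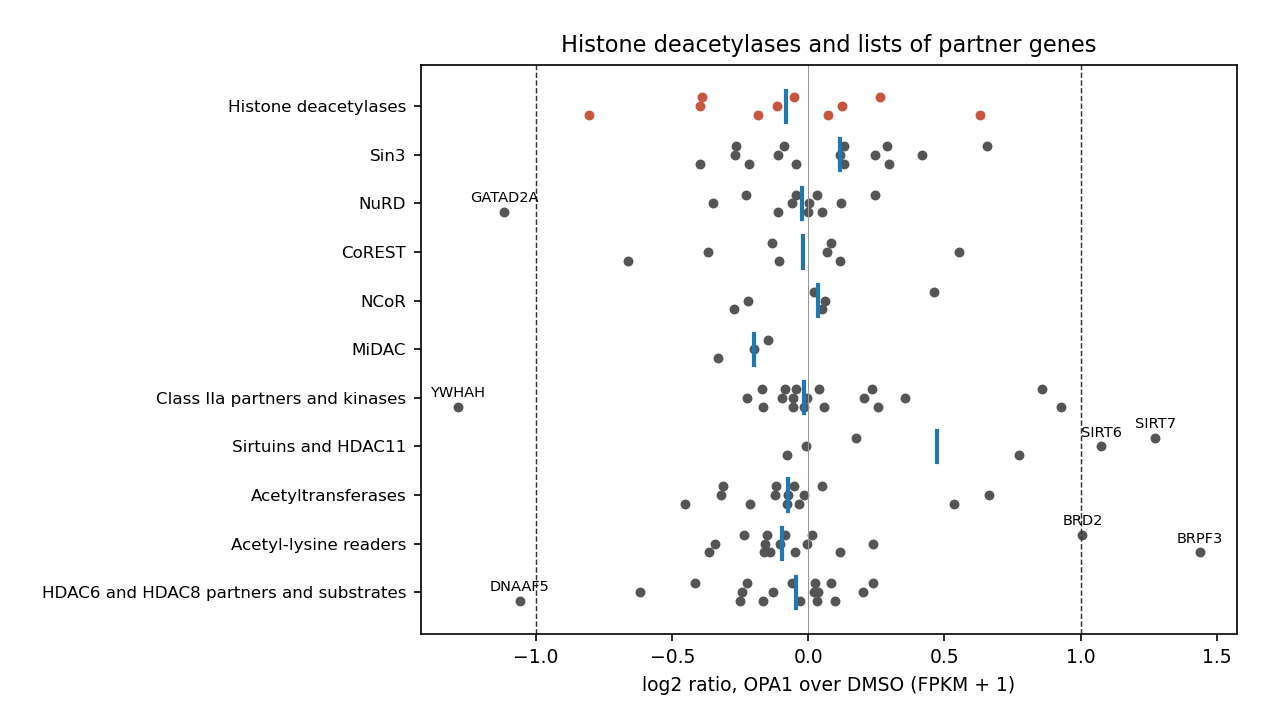
Log2 ratio of OPA1 over DMSO (FPKM + 1) of the 10 deacetylases (red) and of genes on 10 partner lists (grey), with list medians as blue bars and dashed lines at 2-fold. The 10 deacetylases lie between -0.80 and 0.63, and 7 named partner genes lie past 2-fold.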

How the data were processed

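RNA-seq of 2 THP-1 cultures was used, grouped by the treatment label. The deposited table gives the authors' FPKM per protein-coding transcript, per the file headers; per the submitters' processing notes HISAT, StringTie, edgeR and hg19 were used, with no versions or roles given. On the table, every transcript was at 0.5 FPKM or more in at least 1 library, and 2 of its lines were empty in the copy used. FPKM are relative to each library, so amounts per cell were not measured.

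Transcripts were summed per symbol. Genes averaging at least 1 FPKM were kept, and log2 ratios were taken after adding 1 FPKM. Exchange, the share of a gene's FPKM on another transcript, is 50% of the summed absolute difference of transcript shares. No unit of whole reads was found: at the best unit 29.0% and 30.0% of 300 low genes lay within 0.1 of a whole number, where 20% would without any unit. No count test was run. Members and lists were chosen with earlier results of these data known. Partner genes named were list members past 2-fold, the 2 widest ratios of each list and complex scaffolds; some genes picked by this rule are not reported here. Structures and sequences came from GENCODE release 29 by transcript ID, where version and span (within 10 bases) matched, for 28 of 37 transcripts; coordinates from it are GRCh38. The arithmetic was checked on simulated gene folds and exchanges. Noise between the transcripts of a gene was not simulated, so the check says nothing about the error of transcript values. Alternatives were another pseudocount, minimum, scaling, length weighting and the most abundant transcript. Software was matplotlib 3.10.9, pandas 2.3.3, numpy 2.4.6 and Python 3.11.15.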

Additional observations from a re-analysis of the deposited data

How the results depend on the processing

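With 1 library per condition no paired analysis was possible because there are no replicate pairs, and leaving out a replicate was not possible. Under another pseudocount, 3 other scalings and length weighting, none of the 48 gene ratios of the deacetylases reached 2-fold. All had the sign given above, but a pseudocount cannot change a sign. Centring on the median gene and trimmed mean scaling shift all genes by the same small amount. Scaling to a listed sum of 1000000 came before 1 FPKM was added, so it also shrinks low genes less. There HDAC7 moved from -0.40 to -0.51 and HDAC3 from 0.63 to 0.64. The sums it evens out were close, at 325059 and 331515 FPKM, so only signs of small ratios could turn. Kept signs therefore say little outside length weighting. HDAC6 and HDAC8 had no length-weighted value. A value was taken as moved when it changed by more than 0.232 (log2), the spread of all gene ratios, by 10 percentage points of exchange, or 1.5 times in a count.

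Taking the most abundant transcript in place of the sum moved the log2 ratios of HDAC2 to -6.07, HDAC4 to 0.016, HDAC5 to 1.08, HDAC7 to -1.57, HDAC8 to -0.73 and HDAC10 to 0.37. The sign of HDAC4 was then positive, as was the median of the class IIa partners at 0.014; the CoREST median was 0.07 at a minimum mean of 5 FPKM. By construction, taking the most abundant transcript follows 1 transcript of an exchanging gene; 3 deacetylases and 1287 genes were then past 2-fold. Length weighting moved HDAC4 to -0.13 and HDAC7 to -0.88, and the exchange of HDAC2 to 80.7% and HDAC4 to 10.7%. The exchange of HDAC8 was 8.13% without transcripts at 0 or low, a setting that gave no value for HDAC7 and HDAC10, and that of HDAC2 3.36% with equal coding sequences joined. Of all genes, 640 were past 2-fold at a pseudocount of 0.1 FPKM and 234 of fewer genes at a minimum mean of 5 FPKM, where 567 had an exchange of at least 50%. The sirtuin median was 0.77 at that minimum and 0.17 with none. Low members (HDAC6, HDAC7 and HDAC10) rest on few FPKM and unknown read numbers.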

Other observations

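Enzymes that place the marks removed by histone deacetylases were mostly slightly lower in the OPA1 library. Of 14 acetyltransferase genes averaging at least 1 FPKM 3 were higher and 11 lower. Their median log2 ratio was -0.08, and none was past 2-fold. The widest ratios were in the other direction: HAT1, which acetylates new histone H4, was at 69.1 and 100.6 FPKM from 1 listed transcript, and the coactivator NCOA3 was at 3.04 and 5.398 FPKM. In NCOA3 transcripts exchanged, with NCOA3-202 at 2.75 and 0.0206 FPKM and NCOA3-203 at 0.285 and 5.38 FPKM.

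Of 16 genes for readers of acetylated lysine 5 were higher and 11 lower, with a median of -0.10. The 2 past 2-fold were both higher, where 3.96% of all genes were past 2-fold in either direction. BRPF3, a scaffold of an acetyltransferase complex, was at 1.87 and 6.78 FPKM, mainly from BRPF3-202 at 1.87 and 6.20 FPKM. BRD2, a BET bromodomain protein, was at 18.7 and 38.7 FPKM. The higher sum of BRD2 came from BRD2-219, at 0.0302 and 29.7 FPKM, while BRD2-201 was lower at 12.6 and 5.13 FPKM. Over the partner genes with several listed transcripts, 17 of 96 had an exchange of at least 50%, or 17.7%, beside 14.6% of all genes with several listed transcripts.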
